A study of Mus musculus with 4 samples.

Results

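Inflammasomes are protein complexes that macrophages build in response to microbial products or cell damage. A sensor protein (NLRP1, NLRP3, NLRC4 or AIM2) recruits, usually through the adaptor ASC, the protease caspase-1, which cuts the precursor of interleukin-1 beta into its active form and cuts gasdermin D, whose fragments then open pores in the plasma membrane. In microglia, the macrophages of the brain parenchyma, the sensor most studied is NLRP3, and transcription of its gene and of the cytokine gene is raised by inflammatory signals before the complex assembles. The 10 genes described here encode 5 sensors (Nlrp1a, Nlrp1b, Nlrp3, Nlrc4 and Aim2), the adaptor ASC (Pycard), the caspases Casp1 and Casp4, gasdermin D (Gsdmd) and interleukin-1 beta (Il1b). They were taken by gene symbol from the 18526 genes listed in the deposited tables. Of the 10, 9 stood in both tables, and Nlrc4 stood only in the table that holds control 6.

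Transcripts were measured by RNA sequencing of microglia sorted by fluorescence from C57BL/6 mouse embryos at embryonic day 14. The tissue is called cortex in the extraction notes and telencephalon in the study's design text. The Arid1a cKO embryos carried a conditional deletion of Arid1a, which encodes part of the BAF chromatin remodeller, and the controls were Arid1afl/fl. The driver of the deletion, the Cre status of the controls, and the number of embryos behind a sample are not given in the sources used here. Values were analysed for 1 Arid1a cKO library (replicate 2) and 2 control libraries (replicates 5 and 6), so the cKO values have no replicate error. Nothing says that the controls came from separate animals, so a p-value here reflects only how these samples vary, and that variation may be technical.

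The cKO library held 17262261 counted reads, control 5 held 18608979 and control 6 held 13774075. Levels are given as CPM, read counts scaled to a common library size, after TMM scaling between libraries. Arid1a itself had 68.9 CPM in the cKO library, against 109 CPM in control 5 and 130.4 CPM in control 6, the direction of its label. The log2 fold change was -0.80 (SE 0.41, edgeR quasi-likelihood adjusted p = 0.901). In bulk samples, fewer cells of a type and less RNA per cell cannot be told apart. The summed level of 8 microglia markers was 13200 CPM in the cKO library, against 18110 CPM in control 5 and 26010 CPM in control 6. Of those 8, 7 stood lower in the cKO library than in both controls, against 31.1% of all genes tested. None was at 0 in any library. The 8 did not move alike: log2 fold changes ran from -4.08 for Siglech to -0.19 for Csf1r, which lay between the controls.

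Among the inflammasome genes, Il1b, Nlrp3 and Gsdmd stood higher in the cKO library than in both controls, and Nlrp1a, Nlrp1b, Pycard and Casp1 stood lower. Aim2 and Casp4 lay between the controls. None of the 9 genes tested was called by the edgeR quasi-likelihood test with Benjamini-Hochberg adjustment over all 15236 genes tested, where 0.0394% of genes were called in either direction. At an unadjusted p under 0.05 there were 3, Nlrp1a, Pycard and Il1b, against 6.00% of all genes. The DESeq2 Wald test called 2 of the members, Nlrp1a and Il1b, against 1.93% of its genes. Being above both controls was common, at 38.0% of all genes, as was being below both, at 31.1%. The 3 members above and 4 below of 9 are to be read against those shares. At 2-fold or more, Nlrp1a and Pycard were below both controls (7.56% of all genes), and Il1b was above both (9.84%). The median log2 fold change of the 9 was -0.075, and that of all genes was 0.05. Over control 5 alone the members' median was -0.36 and over control 6 alone it was 0.29.

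**Figure D1:**
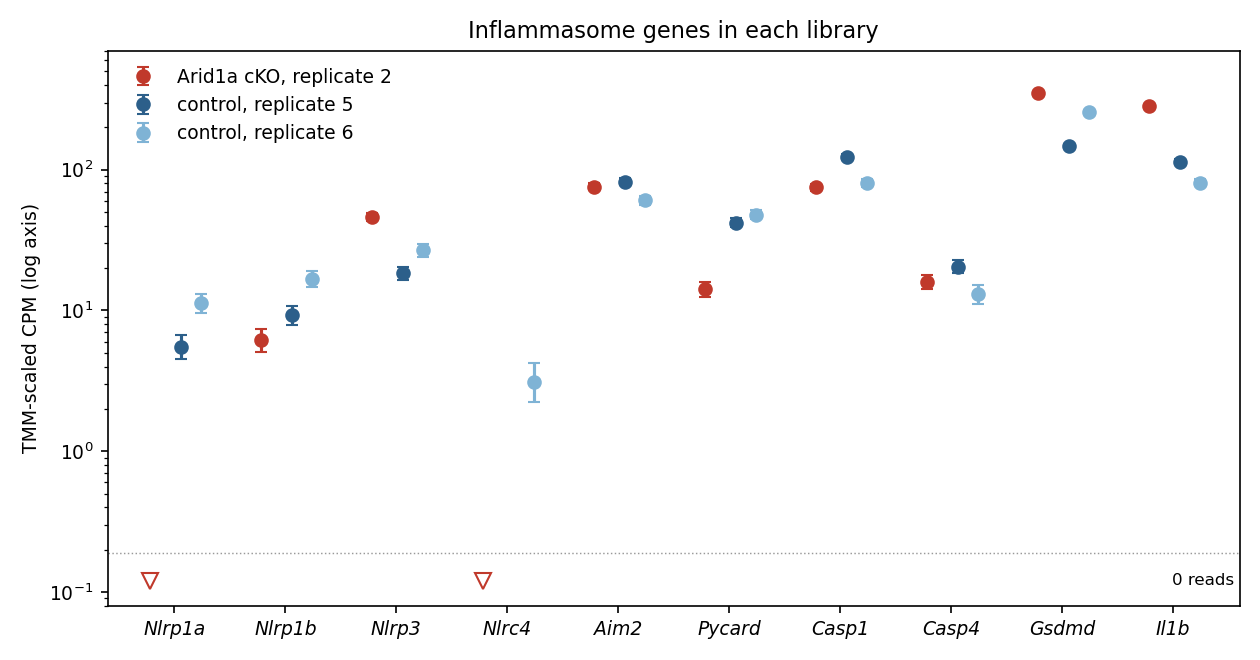
Level of each inflammasome gene in TMM-scaled CPM (log axis) in the Arid1a cKO library (red) and in control 5 (dark blue) and control 6 (light blue). Bars are 95% exact Poisson intervals, and open triangles under the dotted line mark 0 reads. Il1b, Nlrp3 and Gsdmd are highest in the cKO library, Pycard is lowest there, and Nlrp1a and Nlrc4 have 0 reads there. Nlrc4 has no value for control 5.

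The promoters of 4 members are shown because they share a short motif that was searched for in every promoter. They were also chosen because 3 of the 4 genes stood lower in the cKO library than in both controls, against 31.1% of all genes. Casp1, which also stood below both controls, did not hold the motif. A link between motif and level was not tested. The sequences are the 250 bases before the transcription start, from RefSeq on GRCm38.p6, which held 9 of the 10 genes, in lower case 5′ to 3′ on the strand of the gene. Gsdmd had no entry. Capitals mark GAGGAAGT on either strand, a form of the site bound by PU.1, the transcription factor that macrophages depend on.
Nlrp1a (chr11:71144705-71144954, minus strand): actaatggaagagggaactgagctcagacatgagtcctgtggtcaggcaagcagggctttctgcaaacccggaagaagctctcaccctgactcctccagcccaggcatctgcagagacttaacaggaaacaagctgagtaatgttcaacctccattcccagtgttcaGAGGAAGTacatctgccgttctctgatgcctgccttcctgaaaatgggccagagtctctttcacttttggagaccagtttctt
Nlrp1b (chr11:71230734-71230983, minus strand): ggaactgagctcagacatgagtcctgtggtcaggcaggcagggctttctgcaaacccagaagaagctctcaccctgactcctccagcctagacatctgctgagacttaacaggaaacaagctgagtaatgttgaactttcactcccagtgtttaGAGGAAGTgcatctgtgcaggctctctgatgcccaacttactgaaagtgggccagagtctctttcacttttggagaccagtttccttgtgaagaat
Pycard (chr7:127993868-127994117, minus strand): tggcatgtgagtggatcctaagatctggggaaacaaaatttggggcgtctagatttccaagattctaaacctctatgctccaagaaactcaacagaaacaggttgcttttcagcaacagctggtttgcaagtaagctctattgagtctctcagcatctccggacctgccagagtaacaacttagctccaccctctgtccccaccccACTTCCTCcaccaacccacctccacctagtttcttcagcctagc
Aim2 (chr1:173420354-173420603, plus strand): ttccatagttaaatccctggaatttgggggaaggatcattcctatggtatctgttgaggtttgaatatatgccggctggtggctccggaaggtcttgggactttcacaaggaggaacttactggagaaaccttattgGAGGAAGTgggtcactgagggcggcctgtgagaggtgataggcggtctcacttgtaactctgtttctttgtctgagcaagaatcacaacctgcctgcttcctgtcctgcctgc
The match began at position -83 from the start site in Nlrp1a, -96 in Nlrp1b, -113 in Aim2 and, on the opposite strand, at -44 in Pycard. The 9 members with a promoter entry had 12 windows, since a gene can have several starts, and 4 of the 12 held the motif, against 2.44% of 32851 windows of the same length in the table. Aim2, which holds the motif too, lay between the controls. The core of the interferon-stimulated response element (GAAA, any 2 bases, GAAA) was in none of the 12, against 2.98% of windows, and the NF-kB consensus was in 3 (both of Casp4 and 1 of 2 of Nlrp3), against 7.25%. The 12 windows are not independent, since those of Casp4 overlap and the Nlrp1a and Nlrp1b windows shown are alike, so the shares were not tested. A match is a description of these letters and not evidence of binding. The Nlrp1a and Nlrp1b windows shown were 82.5% identical over their alignment. The second window of Nlrp1b, ending at the start site further downstream, held no match and was 48.5% identical to that of Nlrp1a.

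Nlrp1a and Nlrp1b are neighbouring paralogs whose products are held in check by dipeptidyl peptidases, and in some mouse strains Nlrp1b senses anthrax lethal factor. Nlrp1a (ENSMUSG00000069830, GRCm38 chr11:71092236-71144704, minus strand) had 0 reads in the cKO library, against 99 reads in control 5 and 152 reads in control 6. In CPM this was 0 in the cKO library, where 3 reads would be 0.164 CPM, against 5.53 in control 5 and 11.3 in control 6. Both controls were clear of the cKO library, which was at least 33.7-fold lower than control 5 and at least 68.6-fold lower than control 6 when set at 3 reads. Nlrp1a ranked at place 70 of 15236 genes by p and did not pass the test (edgeR quasi-likelihood adjusted p = 0.212). Of 16655 genes listed in both tables, 12 (0.0721%) had 0 reads in the cKO library and 50 or more in each control. That cutoff was chosen after the values were seen, so the count describes Nlrp1a and does not test it. The 16655 include genes with fewer than 50 reads in a control, which could not show the pattern.

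Nlrp1b (ENSMUSG00000070390, GRCm38 chr11:71153102-71230733, minus strand) had 6.13 CPM in the cKO library, against 9.22 CPM in control 5 and 16.7 CPM in control 6. The cKO library was the lowest, and its 95% exact Poisson interval (5.05 to 7.38 CPM) did not reach that of control 5 (7.86 to 10.7 CPM). The controls also differed from each other: the log2 ratio was -0.59 against control 5 and -1.45 against control 6. The fitted log2 fold change was -1.08 (SE 0.79, edgeR quasi-likelihood adjusted p = 0.985). Transcripts of the 2 paralogs can be told apart by sequence over most of their length. Of the distinct 50-base words in the annotated Nlrp1a transcripts, 1.79% also occurred in Nlrp1b transcripts, and 2.07% in transcripts of any other gene. Another family member, the pseudogene Nlrp1c-ps, was listed only in the table with control 6, at 0 reads in the cKO library and 46 reads in control 6. It has no value for control 5, where its count may also have been near 0.

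Nlrp3 (ENSMUSG00000032691, GRCm38 chr11:59541568-59566956, plus strand), the sensor of potassium loss and membrane damage, stood on the other side. It had 46.4 CPM in the cKO library, against 18.4 CPM in control 5 and 26.7 CPM in control 6. The cKO library was the highest and the control intervals lay well below it, by 1.33 (log2) over control 5 and by 0.80 over control 6. The fitted log2 fold change was 1.04 (SE 0.50, edgeR quasi-likelihood adjusted p = 0.889).

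Nlrc4 (ENSMUSG00000039193, GRCm38 chr17:74426295-74459108, minus strand) is the platform on which NAIP receptors for bacterial flagellin and secretion-system proteins assemble. It had 0 reads in the cKO library, against 42 reads, or 3.11 CPM, in control 6, and no value for control 5. Set at 3 reads, the cKO library was at least 19.0-fold lower than control 6. In both tables, every gene with 0 cKO reads had at least 5 reads in the control beside it. Nlrc4 may thus be missing beside control 5 because its count there was under 5 reads, near that of the cKO library. The lower level is shown against control 6 alone. With the missing count set to 0, none of the 10 members passed, against 0.0634% of genes (Nlrc4: edgeR quasi-likelihood adjusted p = 1.00).

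Aim2 (ENSMUSG00000037860, GRCm38 chr1:173350879-173466040, plus strand) senses double-stranded DNA in the cytosol. It had 75.8 CPM in the cKO library, against 82.4 CPM in control 5 and 60.6 CPM in control 6. The cKO library lay between the controls, and its interval (71.8 to 79.9 CPM) overlapped that of control 5 (78.2 to 86.7 CPM). The log2 fold change was 0.08 (SE 0.42, edgeR quasi-likelihood adjusted p = 1.00). In the authors' deposited table, which scales by library totals alone, its log2 ratio was 0.02 over control 5 and 0.43 over control 6, so on that scale it was above both.

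The adaptor gene Pycard (ENSMUSG00000030793, GRCm38 chr7:127989708-127993867, minus strand) stood at 14.2 CPM in the cKO library, against 42.0 CPM in control 5 and 47.9 CPM in control 6. The controls were close together, at 45 ± 4.20 CPM (SD, n = 2), and the cKO library lay far below both. Log2 ratios stood at -1.57 against control 5 and at -1.76 against control 6. The fitted log2 fold change was -1.66 (SE 0.52, edgeR quasi-likelihood adjusted p = 0.592). An annotated gene on the opposite strand, Gm45205, covers 12.8% of the exon bases of Pycard, and the library kit did not mark strand, so reads of that stretch cannot be told apart.

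Casp1 and Casp4 lie next to each other on chromosome 9 and encode the inflammatory caspases. Caspase-1 acts in the complexes with sensors and ASC, and caspase-4 (the mouse caspase also called caspase-11) binds bacterial lipopolysaccharide in the cytosol and cuts gasdermin D without a sensor. Casp1 (ENSMUSG00000025888, GRCm38 chr9:5298517-5307265, plus strand) had 75.1 CPM in the cKO library, against 123 CPM in control 5 and 80.7 CPM in control 6. The cKO library was the lowest, but its interval (71.1 to 79.1 CPM) overlapped that of control 6 (76.0 to 85.6 CPM), and the controls stood apart from each other. The log2 fold change was -0.44 (SE 0.44, edgeR quasi-likelihood adjusted p = 1.00). Scaled by library totals alone, Casp1 was no longer below both controls.

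Casp4 (ENSMUSG00000033538, GRCm38 chr9:5308828-5336783, plus strand) had 15.9 CPM in the cKO library, against 20.5 CPM in control 5 and 13 CPM in control 6. It lay between the controls, with a log2 fold change of -0.075 (SE 0.64, edgeR quasi-likelihood adjusted p = 1.00). Casp1 took 82.5% of their joint reads in the cKO library (95% exact binomial interval 80.6% to 84.3%), against 85.7% in control 5 (84.3% to 87.1%) and 86.1% in control 6 (84.1% to 88.0%). The cKO share was the lowest, and its interval did not reach that of control 5 but overlapped that of control 6. As a ratio, Casp1 had 4.71 reads per Casp4 read in the cKO library, against 6.01 in control 5 and 6.19 in control 6.

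The pore-forming effector Gsdmd (ENSMUSG00000022575, GRCm38 chr15:75862339-75867404, plus strand) had 351 CPM in the cKO library, against 148 CPM in control 5 and 257 CPM in control 6. The cKO library was the highest, and the controls stood apart from each other, at 202 ± 77.4 CPM (SD, n = 2). Log2 ratios stood at 1.25 against control 5 and at 0.45 against control 6. The fitted log2 fold change was 0.79 (SE 0.42, edgeR quasi-likelihood adjusted p = 0.918).

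Il1b (ENSMUSG00000027398, GRCm38 chr2:129364570-129371139, minus strand), the cytokine that caspase-1 activates, had 281 CPM in the cKO library, against 114 CPM in control 5 and 80.9 CPM in control 6. The cKO library was above both controls at 2-fold or more, by 1.30 (log2) over control 5 and by 1.80 over control 6. The fitted log2 fold change was 1.53 (SE 0.38, edgeR quasi-likelihood adjusted p = 0.369), which did not pass.

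**Figure D2:**
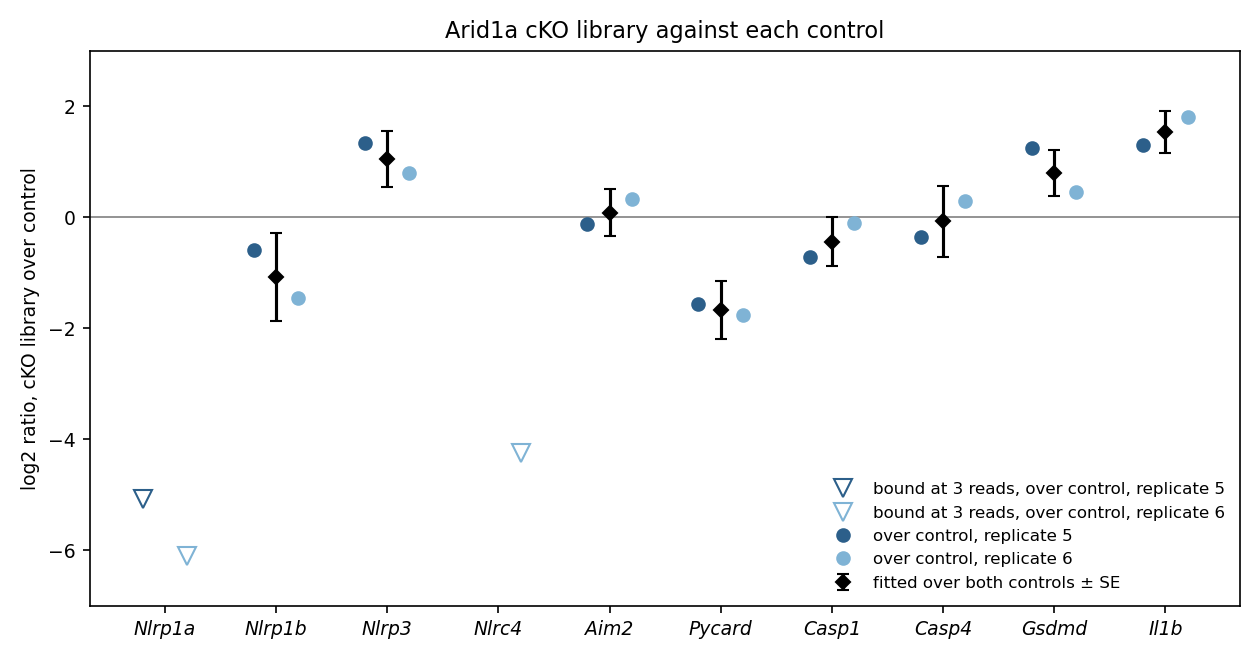
Log2 ratio of each inflammasome gene in the Arid1a cKO library over control 5 (dark blue) and over control 6 (light blue), with the edgeR log2 fold change and its SE (black). Open triangles are bounds with the cKO library set at 3 reads. Il1b, Nlrp3 and Gsdmd lie above 0 over both controls, Nlrp1b, Pycard and Casp1 lie below 0 over both, and the points for Aim2 and Casp4 fall on both sides.

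The genes of the 2 forms of interleukin-1 stood on opposite sides of the controls. Il1a, whose product is active without caspase-1, had 398 CPM in the cKO library, against 1059 CPM in control 5 and 749 CPM in control 6. It was lowest in the cKO library, with a log2 fold change of -1.18 (SE 0.38, edgeR quasi-likelihood adjusted p = 0.613), which did not pass. Within a library the ratio of the 2 genes does not depend on scaling. Il1b took 41.4% of the joint Il1b and Il1a reads in the cKO library (95% exact binomial interval 40.5% to 42.3%). It took 9.73% in control 5 (9.33% to 10.1%) and 9.75% in control 6 (9.21% to 10.3%). The controls thus agreed within counting error while the cKO library stood apart. The pair was chosen after the values were seen, and the share was not tested over samples: an exact permutation test of 1 against 2 libraries cannot go below p = 0.333.

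The Nlrp1 pair also differed in its share, although both of its genes stood below both controls. Its share in the cKO library follows from the 0 reads of Nlrp1a and was not tested over samples. Nlrp1a took 0 of 112 joint Nlrp1a and Nlrp1b reads in the cKO library, which allows a share of up to 2.68%. It took 37.5% in control 5 (95% exact binomial interval 31.6% to 43.6%) and 40.2% in control 6 (35.2% to 45.4%). Intervals and limits cover counting error only, since PCR copies are not independent molecules.

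**Figure D3:**
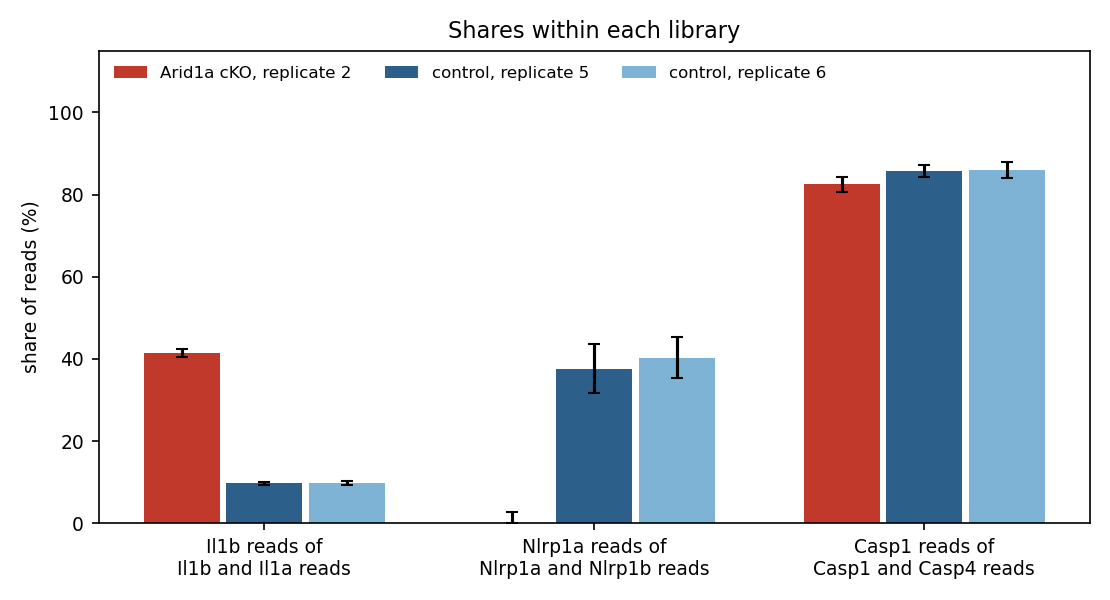
Share of reads (%) that fell on Il1b of Il1b and Il1a, on Nlrp1a of Nlrp1a and Nlrp1b, and on Casp1 of Casp1 and Casp4, in the Arid1a cKO library (red), control 5 (dark blue) and control 6 (light blue). Bars show 95% exact binomial intervals, or the 3-read limit where no read was seen. The control intervals overlap in all 3 pairs, and the cKO library stands apart for Il1b (41.4%) and Nlrp1a (0%). For Casp1 it is lowest (82.5%), with an interval that overlaps that of control 6.

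Levels of different genes were compared as CPM per kb of annotated exon. Gsdmd and Il1b were level at the top of the cKO library, at 147 CPM per kb each. Casp1 had 50.1 CPM per kb there, Aim2 21.6, Nlrp3 11.4, Casp4 4.29, Pycard 3.73 and Nlrp1b 0.972. In controls, Gsdmd had 85.1 ± 32.5, Casp1 68.1 ± 20.1 and Il1b 51.1 ± 12.3 CPM per kb (SD, n = 2), levels that did not differ beyond that spread. Aim2 (20.4 ± 4.4), Pycard (11.8 ± 1.11), Nlrp3 (5.55 ± 1.45) and Casp4 (4.52 ± 1.42) followed in controls, and the last pair did not differ beyond its spread. The level of Nlrp3 was above that of Pycard in the cKO library and below it in both controls. Nlrp1b (2.06 ± 0.844) and Nlrp1a (2.02 ± 0.974) were level in controls, and Nlrc4 had 0.647 CPM per kb in control 6.

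In the authors' deposited table with control 5, which sets 1 library against 1, Nlrp1a alone of the 9 listed members was marked significant, against 29.5% of the genes in that table. In the authors' deposited table with control 6, Nlrp1a, Nlrc4, Pycard and Il1b were marked, 4 of 10, against 18.7% of genes. These tests compare libraries and not genotypes. The mark did not follow the deposited p-values alone, so a gene without it had not thereby failed the authors' test. Beside control 5, Nlrp3 (log2 ratio 1.47), Gsdmd (1.39), Il1b (1.44) and Pycard (-1.43) had small p-values and were not marked.

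Genes that work beside the inflammasome were read in 5 lists. None of the 65 tested was called by the edgeR quasi-likelihood test, against 0.0394% of all genes. An unadjusted p under 0.05 was found for 13 of the 65, against 6.00% of all genes, and the DESeq2 Wald test called 1 (Mndal), against 1.93% of its genes. Of 13 other sensors tested, 7 stood above both controls and 4 below. Such counts, here and in the lists that follow, are to be read against 38.0% of all genes above and 31.1% below. Naip5 and Naip6, which bind flagellin and recruit NLRC4, are examples. Naip5 had 21.5 CPM in the cKO library, against 62.1 and 54.3 CPM in controls 5 and 6, and Naip6 had 41.6 CPM in the cKO library, against 91.3 and 78.3 CPM in controls 5 and 6. Both were lowest in the cKO library, with log2 fold changes of -1.44 (SE 0.48) and -1.03 (SE 0.43). Since the Naip genes resemble each other closely, counting may have split their reads. Mndal, of the same PYHIN family as Aim2, had 68.7 CPM in the cKO library, against 15.0 CPM in control 5 and 9.56 CPM in control 6 (log2 fold change 2.48, SE 0.51, edgeR quasi-likelihood adjusted p = 0.232). Ifi204, another PYHIN gene, had 59.1 CPM in the cKO library, against 20.3 and 30.2 CPM in controls 5 and 6. Both PYHIN genes were highest in the cKO library, and they too are paralogs.

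Among 19 genes of activation and regulation, 7 stood above both controls and 4 below. Gm12250, the interferon-induced GTPase also known as IRGB10, which helps expose bacterial ligands to AIM2 and caspase-11, had 17.5 CPM in the cKO library, against 4.30 and 4.22 CPM in controls 5 and 6. Gbp2, a guanylate-binding protein of the same process, had 47.8 CPM in the cKO library, against 26.4 and 14.8 CPM in controls 5 and 6. Gbp7 had 131 CPM in the cKO library, against 264 and 197 CPM in controls 5 and 6, the opposite direction to Gbp2. Pstpip2, an adaptor that restrains interleukin-1 driven inflammation in mice, had 18.6 CPM in the cKO library, against 5.70 and 4.08 CPM in controls 5 and 6.

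Of 12 other caspase and cell-death genes, 6 stood above both controls and 4 below. Zbp1, a sensor of Z-form nucleic acid that starts necroptosis, had 25 CPM in the cKO library, against 6.42 and 7.26 CPM in controls 5 and 6. Dfna5, which encodes gasdermin E, had 24.2 CPM in the cKO library, against 61.5 and 55.2 CPM in controls 5 and 6. It was lower while Gsdmd was higher. Cflar, a restraint on caspase-8, had 131 CPM in the cKO library, against 233 and 206 CPM in controls 5 and 6.

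Of 12 cytokine and receptor genes, 2 stood above both controls and 6 below. Il18, the other caspase-1 substrate, had 21.5 CPM in the cKO library, against 13.2 and 11.0 CPM in controls 5 and 6 (log2 fold change 0.82, SE 0.62). Il1rn, the receptor antagonist, had 29.4 CPM in the cKO library, against 38.0 and 42.1 CPM in controls 5 and 6. Irak4, the kinase under the interleukin-1 receptor, had 51.9 CPM in the cKO library, against 158 and 90.0 CPM in controls 5 and 6. The antagonist and the kinase were thus lowest in the cKO library, and Il18 was highest there. Of 9 transcription factors, 5 stood above both controls and 2 below. Irf8 had 284 CPM in the cKO library, against 330 and 526 CPM in controls 5 and 6. Spi1, which encodes PU.1, had 144 CPM in the cKO library, against 122 and 55.6 CPM in controls 5 and 6. Nfkb1, which encodes a subunit of NF-kB, had 75.3 CPM in the cKO library, against 144 and 121 CPM in controls 5 and 6. List medians of the log2 fold change were 0.17 for other sensors, -0.04 for activation and regulation, 0.21 for caspases and cell death, -0.42 for cytokines and receptors and 0.32 for transcription factors.

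**Figure D4:**
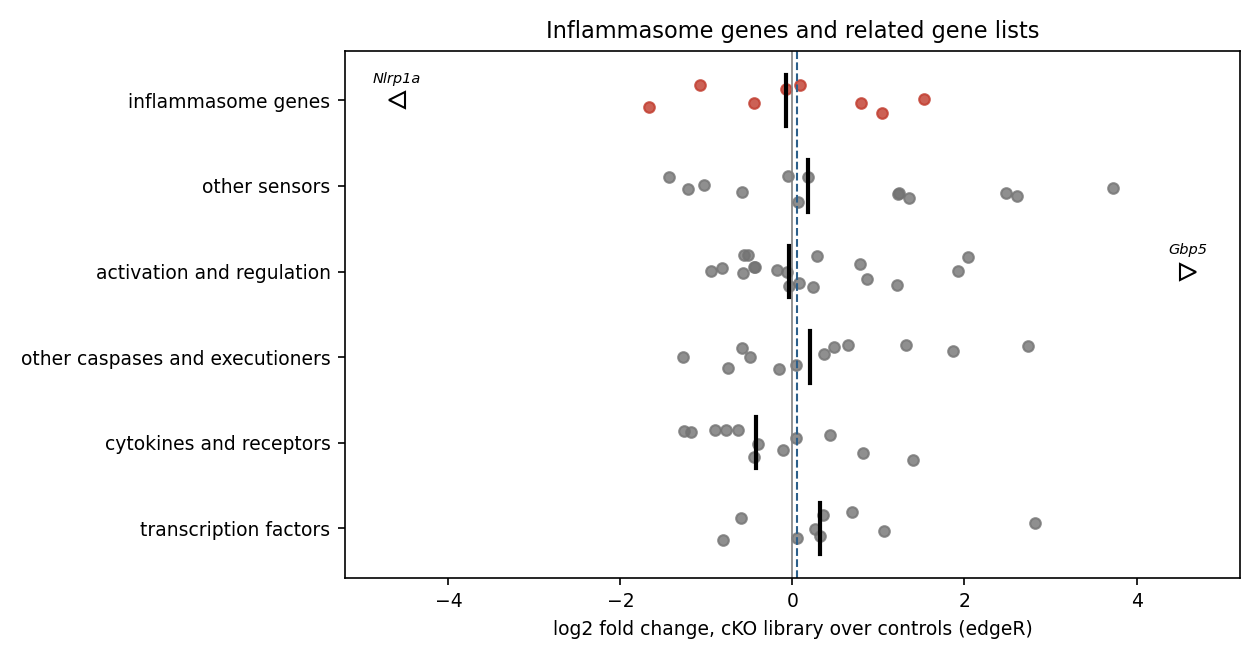
Log2 fold change (edgeR, Arid1a cKO library over controls) of each tested inflammasome gene (red) and of each gene in 5 related lists (grey). Black bars are list medians, from -0.42 to 0.32, and the dashed line is the median of all genes. Open triangles at the edges name genes with 0 reads in the cKO library (Nlrp1a) or in both controls (Gbp5), whose fitted value depends on the prior count.

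Cells other than microglia can carry inflammasome transcripts, so their markers were read in the same libraries. The summed level of the 7 monocyte markers listed in both tables, of 8, was 282 CPM in the cKO library, against 180.5 CPM in control 5 and 239 CPM in control 6. In that list 4 genes were above both controls, 1 (Ccr2, the most abundant) was below both, and none was at 0 in the cKO library. Without Fn1 and Plac8, left out after the values were seen, the other 5 monocyte markers summed to 129 CPM in the cKO library, against 148 CPM in control 5 and 189 CPM in control 6, so that the cKO library was then the lowest. The 8 neutrophil markers listed, of 10, summed to 253 CPM in the cKO library, against 333 CPM in control 5 and 386 CPM in control 6. Of the neutrophil markers, 3 were above both controls, 3 were below, and none was at 0 in the cKO library. Csf3r, the most abundant, had 141 CPM in the cKO library, against 147 CPM in control 5 and 287 CPM in control 6. Cxcr2 had 7.66 CPM in the cKO library, against 73.6 CPM in control 5 and 83.1 CPM in control 6, and Retnlg was also below both controls. Ngp lay between the controls, at 63.3 CPM in the cKO library, against 82.45 CPM in control 5 and 0.889 CPM in control 6. S100a9 lay between them too, and S100a8, Mpo and Camp stood above both. The neutrophil sum thus hides markers that were higher in the cKO library than in control 6. Border-associated macrophage markers, all 7 of them listed, summed to 387 CPM in the cKO library, against 422 CPM in control 5 and 421 CPM in control 6. Of these 7, 2 were above both controls and 2 below. Mast cell and basophil markers, 5 of 8 listed, summed to 36.2 CPM in the cKO library, against 1.51 CPM in control 5 and 18.1 CPM in control 6. Their Fcer1a was at 0 in the cKO library, and 4 of the 5 were at 0 in control 5. Lymphocyte markers, 3 of 8 listed, summed to 1.53 CPM in the cKO library, against 0 CPM in control 5 and 0.519 CPM in control 6. Both lists were at or near 0 in control 5. Erythroid markers (4 of 6 listed) summed to 35.6 CPM in the cKO library, against 33.3 and 40.7 CPM in controls 5 and 6. Endothelial markers (4 of 6 listed) summed to 12.2 CPM in the cKO library, against 32.0 and 30.0 CPM in controls 5 and 6. Of these 4, 1 was above both controls and 2 were below. Neuron and progenitor markers (7 of 8 listed) summed to 191 CPM in the cKO library, against 199 and 232 CPM in controls 5 and 6. In that list 2 were above both controls and 2 below. Mast cell and lymphocyte sums, and the monocyte sum over all 7 markers, were thus highest in the cKO library, as were Il1b, Nlrp3 and Gsdmd. The microglia, neutrophil, border-associated macrophage, endothelial, and neuron and progenitor sums were lowest there, as were Pycard, Nlrp1a, Nlrp1b and Casp1. In each of these lists but that of microglia, single markers stood above both controls. The part of these cells in the results was not tested.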

How the data were processed

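The authors deposited 2 tables, each with raw read counts per gene for the Arid1a cKO library and 1 control, CPM per the file headers and values (count over library total), a ratio (fold change), its log2 value, and p-values whose test is not given in the sources used here. In the submitters' processing notes the tools were TopHat2 2.0.12, HTSeq 0.6.0 and Bowtie2 2.2.3, and mm9 is named. Of the gene positions in the tables, 89.9% equal those of GENCODE M21, so coordinates are those of the files, on GRCm38. Per the labels' protocols, the kit was Illumina TruSeq RNA, which does not mark strand. No value of cKO replicate 1 was analysed here.

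Counts of the 16655 genes in both tables were fitted with edgeR 4.0.16 (R 4.3.3): filterByExpr, which left 15236 genes and all 9 shared members, TMM, quasi-likelihood F test, two-sided, threshold 0.05, 1 residual degree of freedom from the controls. The cKO library is assumed to vary like them. Each SE is the fold change over the root of F. Bounds use 3 reads per library. Word sharing and exon lengths come from GENCODE M21. The alternatives, DESeq2 1.42.0 among them, are listed at the end. The members and lists were chosen with earlier results of these data known. All members and Arid1a were named. From each related list up to 4 genes averaging 5 CPM or more were named, lowest p foremost, or the 3 most abundant where fewer than 2 had p under 0.05. A result that this rule covers is not reported here. From marker lists only sums, counts outside the controls and markers at 0 are given. Camp, Ccr2, Csf1r, Csf3r, Cxcr2, Fn1, Mpo, Ngp, Plac8, Retnlg, S100a8, S100a9 and Siglech are named as well, chosen after their values were seen.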

Additional observations from a re-analysis of the deposited data

How the results depend on the processing

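No paired analysis was possible because the groups share no replicate number. The count of genes called over all genes was 6, and it was 0 with DESeq2 size factors, with upper-quartile factors and with no filter on low counts, 44 where only genes reaching 5 CPM in 2 libraries entered, 10 with genes in either table and 222 with the DESeq2 Wald test. With library totals alone, an alternative chosen after seeing the data, it was 8. No inflammasome gene was called by edgeR in any of these fits (0 in each, with 3 or 4 at an unadjusted p under 0.05), and 2 were called by the DESeq2 Wald test. These were Nlrp1a (adjusted p = 0.00777; 0.00777 to 0.422 over all its alternatives) and Il1b (adjusted p = 0.0257; 0.0257 to 0.662). Pycard ranged from 0.19 to 0.772. The number of inflammasome genes above the controls was 3, with 3 to 5 when a control was left out and 4 with library totals alone. The number below was 4, with 4 to 6 when a control was left out and 3 with library totals alone. The median log2 fold change was -0.075. It was 0.29 without control 5, -0.36 without control 6 and -0.25 with genes in either table, where Nlrc4 entered too. With library totals alone it turned to 0.05. Among single genes, Casp4 turned direction with library totals alone (log2 fold change 0.052, adjusted p = 1.00), and the cause was not tested. The other 8 tested members kept their direction in every refit of all 3 libraries. Over 1 control, Aim2 was -0.12 without control 6 and Casp4 was 0.29 without control 5, on the other side of 0 from their fitted values. With 1 cKO library the tests rest on the spread of the controls. Low counts limit Nlrp1a, Nlrp1b and Nlrc4 most.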

Other observations

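Within 500 kb of Nlrp1a and Nlrp1b, a window chosen after the values were seen, 22 other genes were tested. All of them lie on the Nlrp1a side of the pair, at lower coordinates, so the other side was not read. None of the 22 had 0 reads in the cKO library, 6 stood above both controls, 9 below and 7 between, and none had an unadjusted p under 0.05 (edgeR quasi-likelihood). Their log2 fold changes ran from -1.57 to 3.11, with a median of -0.07. The family member Nlrp1c-ps, at 0 reads in the cKO library and 46 reads in control 6, was not among those tested. Without a value for control 5, it is not shown to be lower than both controls.

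Of the NAIP and NLRC4 group, Naip2, the receptor for the rod protein of bacterial secretion systems in mice, had 46.7 CPM in the cKO library, against 44.1 CPM in control 5 and 45.3 CPM in control 6, levels close to one another where Naip5 and Naip6 were lowest in the cKO library. Naip1 was listed only beside control 5, at 0 reads in the cKO library and 11 reads in control 5, with no value for control 6. Naip2 and Naip1 lie outside the naming rule and were chosen after their values were seen. The same holds for Gbp5, a guanylate-binding protein that promotes NLRP3 assembly, with 63 reads in the cKO library and 0 in each control.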
